A study of Homo sapiens with 36 samples.

Results

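The regions described here are the stretches of the K562 genome that held macroH2A1 islands in both aphidicolin libraries and in neither untreated library, while no macroH2A1.2 list held an island there at either treatment. Islands are the broad enriched stretches that the authors called in each library. The regions were chosen on a grid of 200 bp over chromosomes 1 to 22 and X, with adjoining bins joined and runs of at least 2 kb kept. There were 3934 such regions with a total length of 13.8 Mb, 0.454% of the span of 3035 Mb, among 125130 runs of at least 2 kb into which the presence and absence of islands in these 8 lists divided the genome. Because the macroH2A1 and macroH2A1.2 lists chose the regions, their values over the regions are given as a description without a test. The lists of γH2AX and the macroH2A1.2 lists made after 2 hairpins took no part in the choice.

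MacroH2A1 is a variant of histone H2A that carries a large macro domain at its C-terminal end and is found mostly in broad stretches of silent chromatin. Alternative splicing gives the isoforms macroH2A1.1, whose macro domain binds ADP-ribose, and macroH2A1.2, whose macro domain does not. γH2AX is H2AX phosphorylated at its C-terminal tail, which spreads over chromatin on both sides of damaged DNA and stalled replication forks. Aphidicolin inhibits replicative DNA polymerases, so forks slow down and stall, and at low doses it is used to make chromosomes break at fragile sites.

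All libraries were chromatin immunoprecipitations from K562, a human chronic myeloid leukaemia line that carries the BCR-ABL1 fusion, or from a line named 2A3, whose origin the labels do not give. Of the 2 Millipore antibodies, one is labelled for macroH2A1 with no isoform and the other, MABE61, for macroH2A1.2. Title styles fall into 4 sets, which may be separate experiments. Set 1 held 2 untreated and 2 aphidicolin libraries for macroH2A1 and as many for γH2AX, and its aphidicolin titles carry the number 0.5 without a unit. No other dose and no duration of treatment is labelled. Set 2 held 2 untreated and 2 aphidicolin libraries for macroH2A1.2 and as many for γH2AX. Set 3 held 1 untreated and 1 aphidicolin γH2AX library from K562 and from 2A3. Set 4 held 1 macroH2A1.2 library from untreated K562 given sh-RFP, a control hairpin, and 1 from untreated K562 given sh-mH1.2, a hairpin against macroH2A1.2. The titles of these libraries carry F10 and C11, which the labels do not explain. Whether replicates came from different cultures is not labelled, so the p-values reflect only how far libraries scatter, which may be technical.

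Reads in islands ranged from 39.0e6 to 48.7e6 for macroH2A1, from 9.64e6 to 12.5e6 for macroH2A1.2 in set 2 and from 2.41e6 to 26.5e6 for γH2AX in K562. The sh-RFP list had 75.2e6 and the sh-mH1.2 list 2.02e6. Total reads per library are unknown here, and a list holds no value outside its islands. A lower coverage in a list cannot be told apart as fewer cells with the mark or less of it in each cell. No hg19 sequence or annotation was used here, so the regions are given by position and not placed on genes, and no sequence is printed.

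Most of the gained regions were short and lay in islands with somewhat fewer reads per kb than the list median. Their median length was 3.2 kb, with quartiles of 2.4 and 4 kb, and 515 regions (13.1%) reached 5 kb. At the threshold of length, 362 regions were exactly 2 kb long and 382 runs just outside it were 1.8 kb long. γH2AX covered 7.35 ± 4.34% of the former and 6.96 ± 3.75% of the latter under aphidicolin (SD, n = 5 libraries). The aphidicolin islands that held the regions had a median of 79.3 reads per kb in replicate 1 and 84.4 in replicate 2, against list medians of 86.6 and 92.3. In replicate 1, 82.8% of the regions lay in islands below the list median. As a mean weighted by region length, reads per kb relative to the list were 0.992 in replicate 1 and 0.991 in replicate 2. This mean is raised by the longest region, 61.8 kb on chromosome 2, whose islands held 13.0 and 13.1 times the list median. Input libraries were not used, so these values are densities of whole islands and not enrichment of the regions. Across the 3934 regions the log2 reads per kb of their islands in the 2 aphidicolin replicates, which share the same 200-bp grid and caller, had a Pearson r of 0.728.

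The number of regions depended on how much of the genome each macroH2A1 list covered. The untreated lists had fewer reads in islands (39.0e6 and 41.0e6) than the aphidicolin lists (44.6e6 and 48.7e6), and the part of depth was not tested. The untreated lists covered 332 Mb (replicate 1) and 343 Mb (replicate 2), and both aphidicolin lists covered 438 or 439 Mb. The mirror rule, macroH2A1 islands in both untreated libraries and in neither aphidicolin library without macroH2A1.2, found 367 regions over 1.21 Mb. When every macroH2A1 list was cut to the covered length of the smallest list, its densest islands first, the rule found 695 gained regions over 2.37 Mb and the mirror rule 1261 over 4.35 Mb. The excess of gained over lost regions thus turned around at equal covered length. The cut fell mainly on the aphidicolin lists, which in itself removes gained regions and adds lost ones. The direction of this shift, though not its size, was thus largely set by the cut. Of the 13.8 Mb, 2.29 Mb (16.6%) was also gained at equal covered length, and 670 of the 3934 regions held some of it. With any 1 of the 4 macroH2A1 libraries left out, the rule asked for less and found 5606 to 8869 regions.

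**Figure D1:**
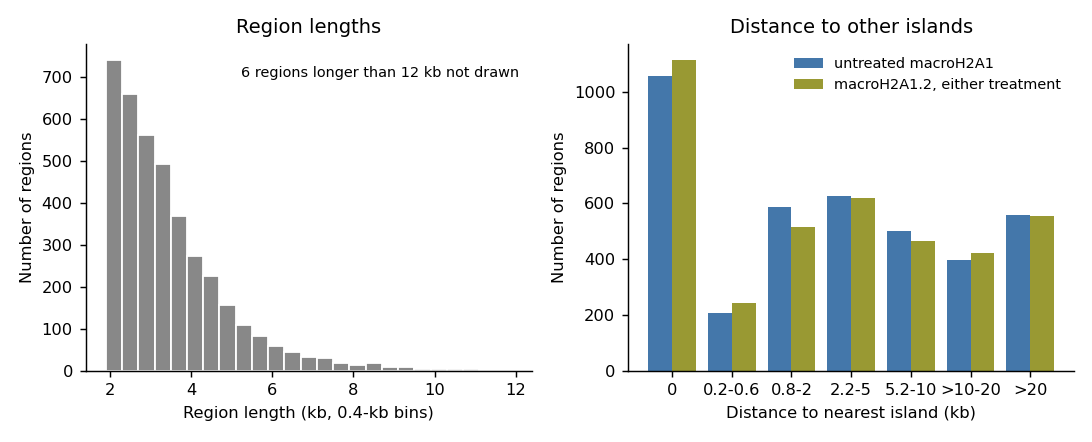
Left, number of regions by length in kb, without the 6 longest. Right, number of regions by the distance in kb from their nearer edge to the nearest island of either untreated macroH2A1 list (blue) or of any of the 4 macroH2A1.2 lists (olive); 1058 and 1116 regions stand at a distance of 0.

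About as many regions lay in islands apart from all untreated macroH2A1 islands as in islands that reached one. For 1951 regions (49.6%) the macroH2A1 islands that held them in both aphidicolin libraries touched no untreated macroH2A1 island anywhere. For the other 1983 at least 1 of these islands reached an untreated one. Only 37 regions were a whole island in both aphidicolin lists. An untreated macroH2A1 island adjoined 1058 regions (26.9%) directly, and the median distance to the nearest one was 2.6 kb. A macroH2A1.2 island adjoined 1116 regions (28.4%), and 194 regions adjoined both kinds. More than 2 kb from either kind lay 1256 regions (31.9%), and 557 (14.2%) lay more than 20 kb from untreated macroH2A1.

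The regions stood in neighbourhoods rich in macroH2A, as the plot of coverage by distance shows. At 20.5 kb from their centres untreated macroH2A1 lists covered 23.7% of bases and aphidicolin lists 41.4%, against 11.1 and 14.4% of the whole span. MacroH2A1.2 was absent from the regions by the rule, but at that distance it covered 10.8% in untreated and 20.8% in aphidicolin lists, against 8.69 and 10.3% of the span. Around the regions macroH2A1.2 coverage was thus higher under aphidicolin too, within flanks that the rule did not restrict. These flanks share libraries with the rule and are a description.

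**Figure D2:**
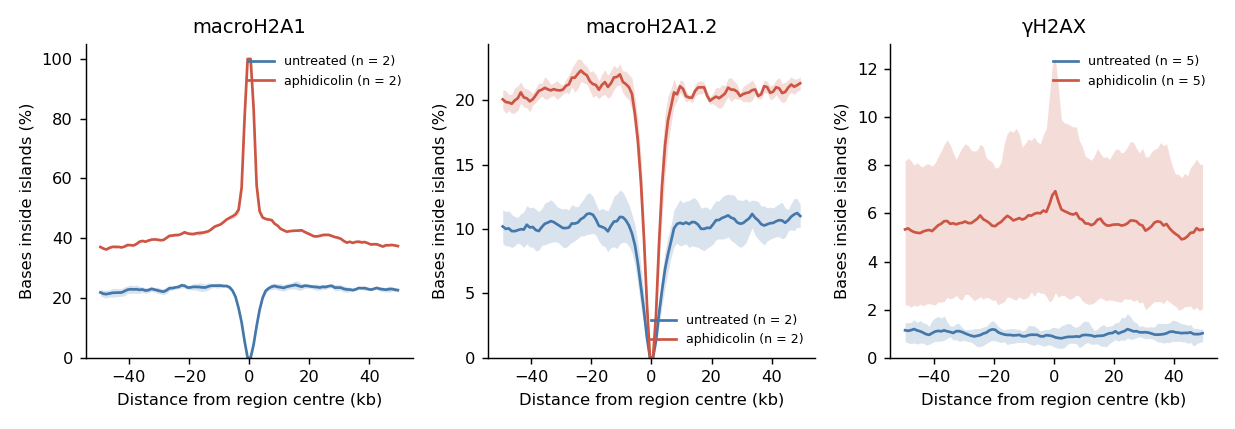
Percent of bases inside islands, in 1-kb steps, by distance in kb from the centre of the 3934 regions; lines are means over libraries and shading their range. The rule sets macroH2A1 to 0 and 100% and macroH2A1.2 to 0% at the centre, while aphidicolin γH2AX reaches 6.84% at the centre and 5.34% at 49.5 kb.

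γH2AX, the damage mark, covered more of the regions under aphidicolin in every title set, though it covered little of them. In set 1 untreated replicates 1 and 2 had 1.32 and 1.07% of the region length inside γH2AX islands, and aphidicolin replicates 1 and 2 had 9.60 and 12.5%. In set 2 untreated replicates 1 and 3 had 0.874 and 0.979%, and aphidicolin replicates 1 and 3 had 6.94 and 2.67%. In set 3 the untreated K562 library had 1.89% and the aphidicolin library 3.88%. All 5 aphidicolin libraries lay above all 5 untreated ones. The means were 1.23 ± 0.405% and 7.12 ± 4.06% (SD, n = 5 each), a difference of 5.90 points. As the regions were chosen with earlier results known, no p is given for this mean over them.

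The aphidicolin γH2AX lists were also larger over the genome as a whole. They covered 5.09 ± 2.67% of the whole span against 2.09 ± 0.566% for the untreated ones (n = 5 each). When all 10 γH2AX lists were cut to the same covered length, keeping the densest islands, γH2AX covered 0.927 ± 0.551% of the regions in untreated and 1.29 ± 0.607% in aphidicolin libraries, and the groups overlapped. As deposited, coverage of the regions divided by coverage of the span was 0.677 ± 0.469 in untreated and 1.43 ± 0.372 under aphidicolin. By set this ratio was 0.568 and 1.62 in set 1, 0.382 and 1.03 in set 2, and 1.49 and 1.82 in set 3. As deposited, aphidicolin γH2AX was denser in the regions than over the span in sets 1 and 3 and about equal to it in set 2. At equal covered length it covered 1.29% of the regions and 1.27% of the span.

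The regions held less aphidicolin γH2AX than chromatin that carried macroH2A1 at both treatments. Stretches in all 4 macroH2A1 lists were covered 1.49 ± 1.15% in untreated and 26.5 ± 16.2% in aphidicolin libraries. MacroH2A1 gains that also lay in macroH2A1.2 islands were covered 2.78 ± 0.771% and 13.2 ± 5.94%, and stretches in none of the 8 lists 1.98 ± 0.746% and 2.15 ± 1.17% (n = 5 each). Stretches of the mirror rule, where macroH2A1 was absent under aphidicolin, were covered 3.20 ± 1.83% and 27.6 ± 17.8%. Mean aphidicolin coverage was thus about as high there as in the stretches in all 4 macroH2A1 lists. The mirror class held only 367 stretches over 1.21 Mb, and absence means only that neither aphidicolin list called an island. In each of the 5 aphidicolin libraries the gained regions without macroH2A1.2 stood above the stretches in none of the lists, below the gains with macroH2A1.2 and below the stretches in all 4 macroH2A1 lists. These differences between classes were not tested.

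**Figure D3:**
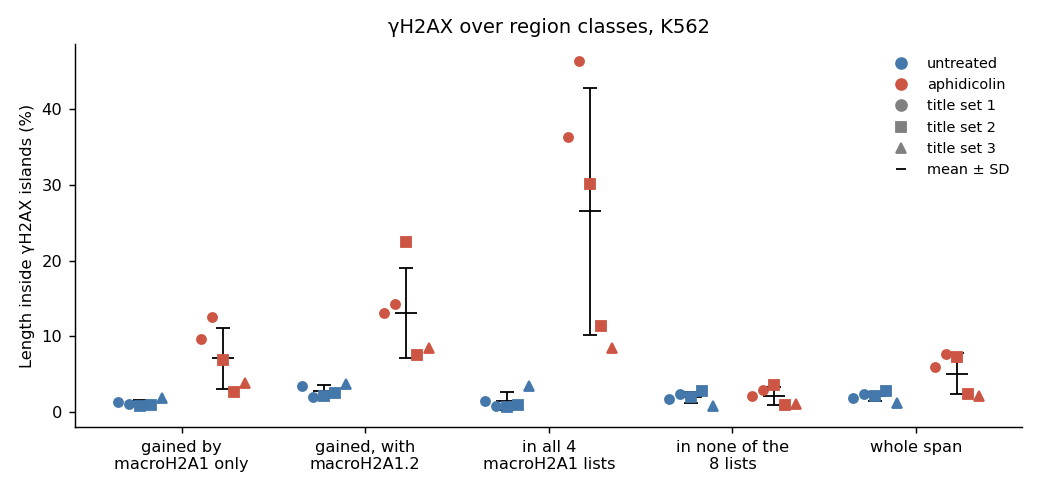
Percent of length inside γH2AX islands in each K562 library, for 4 classes of stretches of at least 2 kb and for the whole span; blue untreated, red aphidicolin, symbols by title set, black bars mean ± SD (n = 5). In the regions gained by macroH2A1 only, aphidicolin libraries lie between 2.67 and 12.5% and untreated ones between 0.874 and 1.89%.

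Coverage by γH2AX in 2 or more libraries was about as frequent in the regions as in all classes together. Of the 3934, 2810 (71.4%) met no γH2AX island in any of the 10 K562 libraries and 604 met one in a single library. The other 520 (13.2%) were covered in at least 2 libraries, as were 13.6% of the 752458 regions and tiles of all classes. They entered a limma fit with title set as a term, made over the 102655 regions and tiles so covered. γH2AX rose in 44 regions at an adjusted p of 0.05 (limma), where 8.37% of everything tested rose, and fell in 2, where 1.64% fell. The 44 are 8.46% of the 520 tested, a share near that background. Stretches in all 4 macroH2A1 lists rose in 5025 of 33779 tested tiles (14.9%), and gains with macroH2A1.2 in 164 of 1580 (10.4%). Stretches of the mirror rule rose in 40 of 196 (20.4%), and those in none of the 8 lists in 2059 of 48688 (4.23%). Other macroH2A patterns rose in 1260 of 17892 (7.04%).

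The count of rises moved with single libraries, and so did that over everything tested. It was 12, 12, 12 and 13 without untreated replicate 1 or 2 of set 1 or untreated replicate 1 or 3 of set 2, and 13, 18 and 14 without aphidicolin replicate 1 or 2 of set 1 or replicate 1 of set 2. Without aphidicolin replicate 3 of set 2, whose 2.96e6 reads in islands were the fewest of the 5 aphidicolin K562 libraries, it was 78. Leaving out either K562 library of set 3 gave 41. Over everything tested the share that rose was 2.07 to 2.18% in the first 4 cases, 3.01, 2.92 and 2.61% in the next 3, 18.2% without aphidicolin replicate 3 of set 2, and 8.60 and 8.71% without either library of set 3. Of the regions tested, 2.33 to 2.56%, 3.63, 5.39 and 3.24%, 16.0%, and 8.02 and 8.37% rose in the same order. The 2 falls were lost without any 1 of the 4 untreated libraries of sets 1 and 2 or any of those 3 aphidicolin libraries. On island reads, edgeR called 194 rises and 6 falls among the regions and DESeq2 239 and 17. The rises were 37.3 and 46.0% of the regions tested, against 26.7 and 41.2% of everything tested.

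Title sets differed in how often γH2AX separated the treatments. In set 1 both aphidicolin libraries lay above both untreated ones in 294 regions, 56.5% of those tested, against 44.8% of everything tested. In set 2 this held in 110 regions (21.2%), against 20.1%. The reverse order held in 10 regions in set 1 and 7 in set 2, 1.92 and 1.35% of those tested, against 9.13 and 12.4% of everything tested. The differences between these shares were not tested. All 5 aphidicolin libraries lay above all 5 untreated ones in 18 regions (3.46%), against 2.66%, and below them in 0, against 0.0799%.

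Among the 44 rises, 43 were at 0% in all 5 untreated libraries, and the median aphidicolin coverage of the 44 was 73.1%. These 43 entered the fit through their aphidicolin libraries alone, so their untreated zeros are a description. Without the filter on coverage the fit called 10 rises. MacroH2A1.2 islands after sh-RFP covered at least 50% of 26 of the 44 regions, against 26.7% of all 3934, a difference that was not tested. The 44 rises were spread over 16 chromosomes, with 8 on chromosome 1, 7 on chromosome 3, 6 on chromosome 8 and 4 on chromosome 7. A separation of treatments within every title set was seen in 17 of them, and the 10 with the largest differences are described next. All 10 were at 0% in each of the 5 untreated libraries.

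Regions at chromosome 3, 17882601 to 17887600, and chromosome 1, 231446401 to 231448600, were at 100% in all 5 aphidicolin libraries (adjusted p = 3.43e-05 for each, limma). γH2AX islands thus spanned both regions from edge to edge, and the one on chromosome 1, which adjoins an untreated macroH2A1 island, is 2.2 kb of a longer macroH2A1 island. At chromosome 6, 14197801 to 14208000, the longest of the 10 with 10.2 kb, aphidicolin libraries stood at 100, 100, 100, 92.2 and 100% (mean 98.4 ± 3.51%, adjusted p = 4.43e-05, limma). The libraries are listed here and in the next sentences as set 1 replicates 1 and 2, set 2 replicates 1 and 3, and set 3.

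A pair of regions lay 3.4 kb apart on chromosome 7. From 135471201 to 135476000 aphidicolin γH2AX was 100, 100, 100, 100 and 83.3% (mean 96.7 ± 7.45%, adjusted p = 6.49e-05, limma), and from 135479401 to 135483000 it was 100, 100, 100, 72.2 and 100% (94.4 ± 12.4%, adjusted p = 0.000245, limma). In replicate 2 a single macroH2A1 island of 27.4 kb held both, so they are not independent of each other.

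Chromosome 10 held 2 of the 10. The region from 11805201 to 11809400 adjoined an untreated macroH2A1 island and stood at 100, 100, 100, 100 and 81.0% (96.2 ± 8.52%, adjusted p = 7.61e-05, limma). The region from 79815201 to 79818200 adjoined a macroH2A1.2 island and stood at 100, 100, 100, 80 and 73.3% (90.7 ± 13.0%, adjusted p = 0.000262, limma). In both, the 2 libraries of set 1 were full and the lowest value was that of set 3.

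The last 3 lay on chromosomes 16 and 8. Chromosome 16, 81974601 to 81976800, was 25.2 kb from the nearest untreated macroH2A1 island and stood at 100, 100, 100, 72.7 and 90.9% (92.7 ± 11.9%, adjusted p = 0.000250, limma). Chromosome 8, 98267801 to 98270200, stood at 100, 100, 91.7, 100 and 66.7% (91.7 ± 14.4%, adjusted p = 0.000245, limma). Chromosome 8, 130827201 to 130830600, stood at 100, 100, 100, 94.1 and 23.5% (83.5 ± 33.6%, adjusted p = 0.00832, limma), and set 3 alone was low there. That call ended with the replicate number as a block (adjusted p = 0.0672, limma) and without the filter on coverage (0.144).

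Several of these calls ended when all γH2AX lists were cut to equal covered length. The difference was then 60 points at chromosome 1 from 231446401 (adjusted p = 0.173, limma), 78.4 points at chromosome 6 from 14197801 (0.0518) and 30.7 points at chromosome 10 from 79815201 (0.217). Chromosome 3 from 17882601, chromosome 16 from 81974601 and both regions on chromosome 8 were covered in fewer than 2 libraries and were not tested. The pair on chromosome 7 and chromosome 10 from 11805201 passed the test there too. With the upper 50% of γH2AX islands by reads per kb, the call at chromosome 16 ended (60 points, adjusted p = 0.120, limma) and the regions on chromosome 8 were not tested.

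In line 2A3 some of the 10 carried γH2AX without aphidicolin. Its untreated library covered chromosome 3 from 17882601 and chromosome 10 from 79815201 fully, chromosome 1 from 231446401 to 90.9% and chromosome 7 from 135471201 to 87.5%, and the other 6 at 0%. Untreated K562 of the same set was at 0% in all 10. Over the 44 rises, 2A3 covered at least 50% of 10 regions untreated and of 17 under aphidicolin. Over all 3934 regions its γH2AX covered 3.14% untreated and 5.94% under aphidicolin, against 1.89 and 3.88% in K562 of set 3. With 1 library per line and treatment there was no replicate check.

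Both falls lay on chromosome 1 and were named after their values were seen, since set 3 did not separate there. From 50179801 to 50184000 untreated γH2AX was 71.4, 100, 100, 100 and 0% in the same order of libraries, and aphidicolin γH2AX was 0% in all 5 (difference -74.3 points, adjusted p = 0.0266, limma). From 186743801 to 186746800 it was 93.3, 100, 100, 100 and 0% against 0% in all 5 (difference -78.7 points, adjusted p = 0.0253, limma). The rule itself fixes macroH2A1 there as absent untreated and present under aphidicolin, and macroH2A1 was measured in set 1 only. Both were fully covered by macroH2A1.2 islands after sh-RFP, and the first was 66.7% covered after sh-mH1.2 as well.

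**Figure D4:**
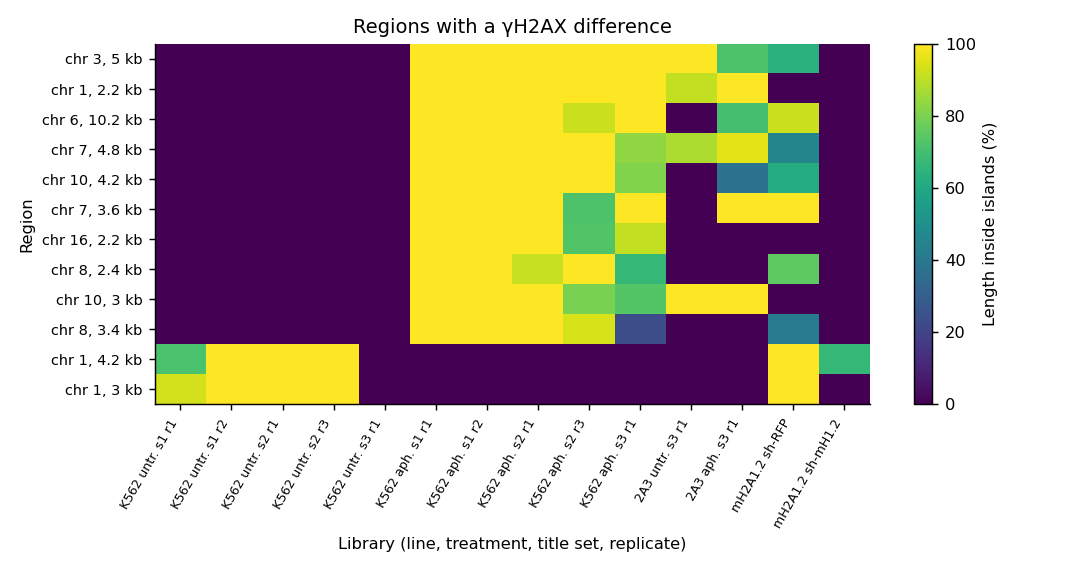
Percent of length inside islands for the 10 regions with the largest γH2AX rises and the 2 falls (rows, by chromosome and length) in the 12 γH2AX libraries and the 2 hairpin macroH2A1.2 libraries (columns; s is title set, r replicate). The upper 10 rows are 0% in all untreated K562 columns and the lower 2 rows 0% in all aphidicolin columns.

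γH2AX coverage varied within the regions with their surroundings. Regions that adjoined a macroH2A1.2 island were covered 10.9 ± 5.71% under aphidicolin, and those over 2 kb from one 4.89 ± 2.84% (SD over 5 libraries). Regions whose macroH2A1 island reached an untreated one were covered 8.75 ± 5.09%, and those in wholly new islands 5.64 ± 3.14%. In untreated libraries these values were 0.937 ± 0.638% and 1.49 ± 0.611%, the other way round. The 984 regions in the macroH2A1 islands with most reads per kb were covered 11.5 ± 5.58%, and the 985 in those with fewest 3.70 ± 2.39%. The former were also higher in untreated libraries, at 2.83 ± 1.31% against 0.662 ± 0.376%. The 61.8-kb region on chromosome 2, described below, was among the wholly new islands and among those with most reads per kb. It was covered 58.4 ± 53.4% in untreated libraries. Chromosome 4 from 49247401 (33 kb) and chromosome 21 from 10026201 (8.8 kb), in both groups too, were covered 20 ± 44.7% and 91.8 ± 9.72%. The untreated values of these groups, and the reversed order above, thus rest in part on a few regions. Values without these regions were not computed. No test of these splits was made, and the ranges over aphidicolin libraries overlap in each.

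The control hairpin list held macroH2A1.2 in part of the regions. After sh-RFP macroH2A1.2 islands covered 24.2% of the region length and at least 50% of 1052 regions (26.7%), against 13.8% of all regions and tiles of the genome. It covered none of 2646 regions. In the other classes the share covered to at least 50% was 85.1% of tiles in all 4 macroH2A1 lists, 61.9% of gains with macroH2A1.2 and 1.78% of tiles in none of the 8 lists. These 1052 regions, free of macroH2A1.2 in the 4 lists of set 2, thus held it in this library of untreated cells. The sh-RFP list had 75.2e6 reads in islands and the deepest list of set 2 had 12.5e6, and the part of depth in this was not tested. Regions with sh-RFP coverage of at least 50% also had more γH2AX, 11.1 ± 5.59% under aphidicolin and 2.64 ± 0.659% untreated, against 5.38 ± 3.51% and 0.675 ± 0.428% in the 2646 without any. The 61.8-kb region on chromosome 2, covered 58.4 ± 53.4% by untreated γH2AX, was among the former and raised their untreated value. The value without it was not computed.

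After sh-mH1.2 macroH2A1.2 islands covered at least 50% of 19 regions (0.483%), against 0.787% of all regions and tiles. These 19 made up 1.13% of the region length, yet held 40.6 ± 23.2% of the γH2AX length found in the regions in untreated libraries (n = 5, range 16.3 to 64.8%) and 6.90 ± 8.69% under aphidicolin. Without them untreated γH2AX covered 0.756 ± 0.381% of the regions and aphidicolin γH2AX 6.82 ± 4.10%. Of their 0.156 Mb, 61.8 kb was the single region on chromosome 2 described next. Its untreated γH2AX was 96.1 to 100% in sets 2 and 3, so the untreated share is not a trait of all 19.

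The longest of them were also among the longest of all gained regions and stood out in reads. The region at chromosome 2, 92264401 to 92326200, with 61.8 kb the longest of all, ended at a stretch of at least 1 Mb without islands in any of the 22 lists, the only region to do so. Its macroH2A1 islands held 13.0 and 13.1 times the list median of reads per kb. γH2AX there was 0, 0, 96.1, 100 and 96.1% in untreated and 0, 0, 0, 0 and 100% in aphidicolin libraries, so presence went neither with treatment nor with title set alone. The region at chromosome 4, 49247401 to 49280400, with 33.0 kb, stood at 4.10 and 4.41 times the list median. Its γH2AX was 0, 0, 0, 0 and 100% untreated and 100, 100, 0, 0 and 100% under aphidicolin. Neither difference passed the test (adjusted p = 0.153 for each, limma). No filter for mappability was applied, and its part in these values was not tested.

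The other 3 of the 5 longest among the 19 differed from each other. Chromosome 21, 10026201 to 10035000, was covered 91.8 ± 9.72% in untreated and 92.7 ± 11.4% in aphidicolin libraries (n = 5 each, adjusted p = 0.919, limma). Chromosome 22, 22667401 to 22673800, was at 0, 0, 0, 0 and 100% untreated and 100, 100, 100, 0 and 100% under aphidicolin (adjusted p = 0.117, limma). Its macroH2A1 islands of 234 and 227 kb were at 3.28 and 3.35 times the list median of reads per kb, not corrected for copy number. Chromosome 16, 80255601 to 80260600, was at 100, 36, 0, 0 and 0% untreated and at 0% in all 5 aphidicolin libraries (adjusted p = 0.218, limma).

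The other 8 of the 10 longest regions showed no called γH2AX difference. They were 11 to 19 kb long and lay on chromosomes 1 (2 regions), 3, 7, 10, 14, 16 and 18. The macroH2A1 islands that held them were near the list median, at 0.870 to 1.08 times it. Chromosome 3, 43042801 to 43061800, had aphidicolin γH2AX of 45.3, 0, 0, 0 and 70.5% (adjusted p = 0.193, limma), and chromosome 10, 324601 to 335600, had 100, 100, 0, 0 and 87.3%, with 100% in untreated set 3 as well (adjusted p = 0.166, limma). Chromosome 18, 35240201 to 35256800, had 21.7, 37.3, 0, 0 and 0% (adjusted p = 0.246, limma). At chromosome 1, 149089001 to 149101800, and chromosome 7, 71490001 to 71501600, γH2AX was at 0% in all 10 libraries. The others met γH2AX in 1 library only, at 49.2% on chromosome 16 from 56114201, 29.8% on chromosome 14 from 20359201 and 18.2% on chromosome 1 from 118765601.

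The regions gathered in parts of the genome. Of 3050 bins of 1 Mb, 1203 held at least 1 region, and 49 bins with at least 10 regions held 620 of them. Chromosome 12, 115000001 to 116000000, held 25 regions over 92.2 kb, the most of any bin. It was followed by chromosome 1, 34000001 to 35000000 (20 regions, 76.0 kb), chromosome 16, 13000001 to 14000000 (20 regions, 68.6 kb), and chromosome 16, 55000001 to 56000000 (15 regions, 68.0 kb). Chromosome 2, 92000001 to 93000000, came next with 64.2 kb in only 2 regions, nearly all of it the 61.8-kb region. Neighbouring regions were separated by a median of 109 kb, and 438 of 3911 gaps (11.2%) were at most 10 kb.

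Chromosomes 16 and 10 held the most region length for their size, 0.911 and 0.866% of the chromosome, against 0.454% of the span. Chromosomes X and 13 held the least, 0.0742 and 0.120%. As a share of the bases in both aphidicolin macroH2A1 lists the order was another, as the plot by chromosome shows. Chromosome 18 led with 11.5%, followed by X with 9.06%, 14 with 8.66% and 13 with 7.17%, against 3.74% over all chromosomes, while chromosomes 19 and 22 had 1.56 and 1.84%. MacroH2A1 covered 27.7% of chromosome 19 in both aphidicolin lists against 0.819% of X. No correction for copy number was made here, and its part in these shares was not tested.

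**Figure D5:**
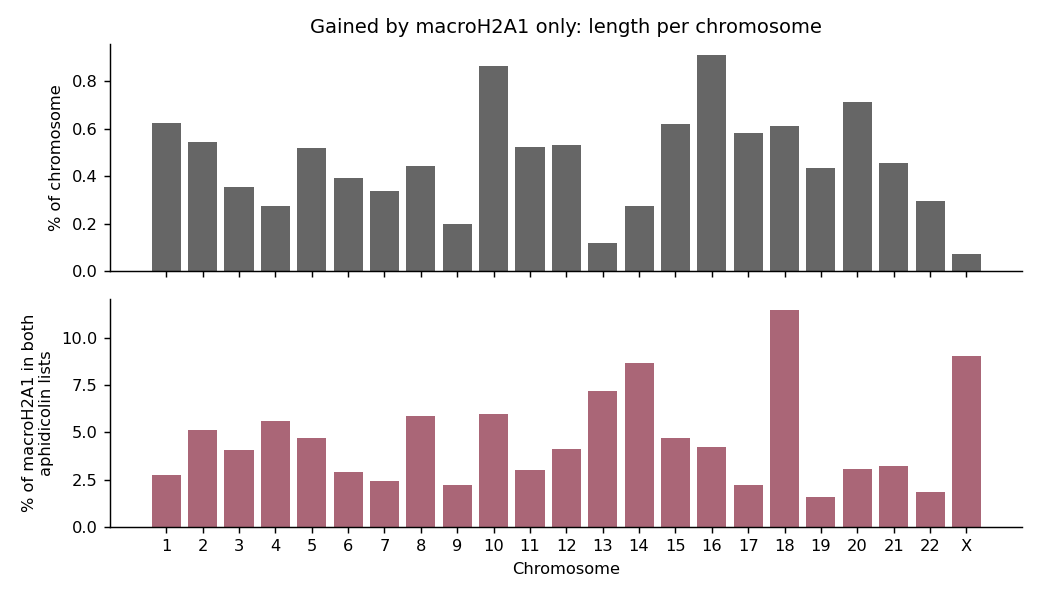
Length of the gained regions per chromosome, as percent of the chromosome (upper bars) and as percent of the bases inside islands of both aphidicolin macroH2A1 libraries (lower bars). Chromosome 16 is highest in the upper bars (0.911%) and chromosome 18 in the lower (11.5%).

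Ends of long arms held few of the regions. They made up 0.222% of the last 2 Mb of the chromosomes and 0.458% of the rest, while macroH2A1 islands common to both aphidicolin lists covered 22.4% of the ends and 12.0% of the rest. Counting only bases outside untreated macroH2A1 and all macroH2A1.2 islands, where a region could lie, the shares were 0.329 and 0.559%. There were 31 regions in these ends, and the difference was not tested.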

How the data were processed

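Chromatin was cut with micrococcal nuclease, per the labels' protocols. The authors deposited 1 island list for each of 22 immunoprecipitations, and 14 input libraries were not analysed here. Each island has a whole-number count of reads, not scaled to library size, in the deposited lists. The submitters' processing notes list Bowtie2 2.1.0, SICER 1.1, deepTools and hg19 and give none of them a role. List names carry W200, G600 and FDR 0.01, SICER's settings for window, gap and false discovery. Calling depends on depth, so deeper libraries may cover more of the genome.

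Positions are hg19, counted from 1. Members and region lists were chosen with earlier results of these data known. Stretches of the other classes (runs of at least 2 kb) were cut into tiles of 4 kb, with pieces under 2 kb dropped. The percent of each region or tile inside γH2AX islands was fitted with limma 3.58.1 (title set as a term, Benjamini-Hochberg adjustment at 0.05) where at least 2 of 10 libraries covered it. Where all libraries of a treatment are equal, limma's error comes from the spread shared over all regions, so SD and adjusted p are given. Alternatives included island reads shared out by length with edgeR 4.0.16 and DESeq2 1.42.0. The fits were tested on simulated data of intermediate coverage and dense counts. That test does not show how they behave on values at the ends of the scale, which are frequent here. Regions named were the 10 longest, the 10 largest rises separated within every title set, the 5 bins of 1 Mb with most region length and the 5 longest regions held after sh-mH1.2. The planned gene lists were not run, since no hg19 annotation was used here. No replicate pair shared more than 13 islands with equal edges and reads (0.0366% of the shorter list), so all libraries were kept.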

Additional observations from a re-analysis of the deposited data

Results flagged for a closer look

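A library far from the other 4 of its treatment was searched for in 58 groups and measures of γH2AX, and 17 were past Dixon's critical value for 5 samples. Chance flags about 1 in 20, and percentages that are often exactly 0 or 100 pass more easily. All 17 are single regions named in the results, and coverage over all regions had no such library.

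Among the long regions and those covered after sh-mH1.2, 1 library stood high alone. In untreated K562 this was 100% at chromosome 4 from 49247401, chromosome 10 from 324601 and chromosome 22 from 22667401, in each case the library of set 3, and 29.8% at chromosome 14 from 20359201 in set 1 replicate 1. Under aphidicolin it was 100% at chromosome 2 from 92264401 (set 3), 49.2% at chromosome 16 from 56114201 (set 1 replicate 1) and 18.2% at chromosome 1 from 118765601 (set 2 replicate 1).

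In other regions 1 library stood low alone. Under aphidicolin this was set 3 at chromosome 7 from 135471201 (83.3%), chromosome 10 from 11805201 (81.0%), chromosome 8 from 98267801 (66.7%) and chromosome 8 from 130827201 (23.5%). It was set 2 replicate 3 at chromosome 6 from 14197801 (92.2%), chromosome 7 from 135479401 (72.2%), chromosome 21 from 10026201 (72.7%) and chromosome 22 from 22667401 (0%). In untreated K562 it was set 3 at chromosome 1 from 50179801 and from 186743801 (0% in both).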

How the results depend on the processing

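The number and length of the regions depended on the rule's settings. A minimum run of 1 kb gave 6641 regions, and one of 5 kb gave 515 over 3.38 Mb. The upper 50% of macroH2A1 islands by reads per kb gave 1236 over 4.98 Mb, equal covered length 695 over 2.37 Mb, and not asking about macroH2A1.2 9800 over 37.7 Mb. Leaving out 1 macroH2A1 library gave 5606 to 8869 regions and 20.4 to 35.5 Mb. The γH2AX difference over the regions stayed positive in each alternative run, from 1.99 points in set 3 alone to 9.88 in set 1 alone, except for a fall to 0.364 points at equal covered length of the γH2AX lists, and from 4.54 to 7.01 with 1 library left out. An alternative added after the data were seen, without the 19 regions covered after sh-mH1.2, gave 6.06.

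Rises and falls of γH2AX, 44 and 2 as reported, were 20 and 1 with the upper 50% of γH2AX islands, 3 and 1 at equal covered length of the γH2AX lists, 18 and 1 at equal covered length of the macroH2A1 lists, 11 and 0 at a minimum of 5 kb, and 10 and 0 without the filter, where limma warned that too many variances are 0 for its estimate to be reliable (123 and 6 at an unadjusted p under 0.05). They were 194 and 6 with edgeR, 190 and 9 without TMM scaling, and 239 and 17 with DESeq2. With 1 library left out they ranged from 12 to 78 and from 0 to 3. Deviations of same-numbered libraries from their group means had r of 0.000353 in set 1 and 0.0473 in set 2. With so few libraries per group this is 1 comparison per set and cannot show whether replicate numbers pair the libraries. With the replicate block the counts were 10 and 0. Of the regions tested, 10.1, 3.53, 12.1, 11.3, 0.254 and 36.5% rose, in the order given up to no filter and then without TMM scaling, and 1.92% with the block. Over everything tested it was 8.72, 4.41, 8.36, 8.37, 0.209 and 26.3%, and 1850 of 102655 with the block. The cause of these shifts was not tested.

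Regions at least 50% covered numbered 1052 after sh-RFP and 19 after sh-mH1.2. Asking for 90% gave 657 and 10, the upper 50% of islands 457 and 10, a minimum of 5 kb 114 and 5, and equal covered length of the macroH2A1 lists 241 and 9. Within 2 kb of an untreated macroH2A1 island lay 1851 regions, and of the regions of at least 5 kb 106 adjoined one. Precision is limited by the unknown depth and by 1 to 5 libraries per group.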

Other observations

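The γH2AX islands that met the gained regions were a small part of each list. In aphidicolin libraries they numbered 471 and 612 in set 1 (replicates 1 and 2), 409 and 161 in set 2 (replicates 1 and 3) and 157 in set 3, between 1.09 and 1.85% of a list. In untreated libraries they numbered 70 and 56, 26 and 34, and 65. They were as long as or longer than the islands of their list, with medians of 6 against 5 kb and 5.6 against 4.8 kb in set 1 under aphidicolin, 6.8 against 6 kb and 3.8 against 3.6 kb in set 2, and 6 against 5.2 kb in set 3. Longer islands meet a given set of regions more easily, so these lengths do not mark the islands out. Of the islands that met the regions under aphidicolin, between 39.1 and 54.5% also reached an untreated macroH2A1 island.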
